A study of Mus musculus with 96 samples.

Results

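Il1a, Il1b and Il1rn were followed across all 12 groups of a small-molecule screen in mouse bone marrow-derived macrophages. They were chosen by name, as the 2 agonist genes of the interleukin-1 system and the gene of their receptor antagonist. These are 3 of 23481 gene symbols in the count table, and all 3 passed the filter that left 4963 genes for testing. Macrophages from wild-type male C57BL/6 mice 8 weeks of age, grown in medium conditioned with MCSF, were exposed to a small molecule for 30 min, then stimulated with lipopolysaccharide (LPS), a bacterial cell wall component, and lysed 4 h later. Transcript 3′ ends were counted in 96 libraries, 8 per group, as 4 wells on each of 2 plates. NoStim cells received no LPS. The other 11 groups received LPS, after the vehicle DMSO or after Baflo, BrefA, Caspase-1, Dexa, Halofuginone, pGE2, tBHQ, Torin, Tunicamycin or ZVAD. Compounds are named as the labels name them, without doses. DMSO with LPS was the control of each compound and NoStim the control of LPS. No compound was given without LPS, and NoStim wells have no stated vehicle. The labels give neither the number of mice nor whether wells were separate cultures, so p-values measure only the spread between wells, which may be technical.

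Interleukin-1α and interleukin-1β bind the same receptor and set off fever, leukocyte recruitment and further cytokine production. Interleukin-1α is active as made and is released by damaged cells. Interleukin-1β is made as an inactive precursor that caspase-1 cuts inside inflammasomes, so its output depends on transcription first and on processing after that. The interleukin-1 receptor antagonist, the product of Il1rn, occupies the receptor without signalling, and macrophages make it after Toll-like receptor stimulation along with the agonists. The measurements here are of RNA and say nothing of cleavage or release.

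Libraries held 80196 to 379198 counts (median 257984). Halofuginone libraries were the shallowest, with 80196 to 136526 counts, and held 39.0% to 49.1% of the ribosomal RNA precursor Rn45s against 9.43% to 23.7% in DMSO. All 8 macrophage markers found in the table had counts in each group, except that Mertk was at 0 in Halofuginone. Their summed level ranged from 1439 to 4290 CPM (counts scaled to an effective library size of 1e+06). The 8 neutrophil markers found summed to 0 to 23.9 CPM in any library, with Mpo, Elane, Retnlg and Ltf at 0 throughout. In the highest library, summed markers reached 65.9 CPM for fibroblasts, 58.7 CPM for dendritic cells and 43.9 CPM for T cells. Those of B cells and erythroid cells reached 6.68 and 7.24 CPM. The library Tunicamycin plate 2 F was the lowest of its group for each member, as given with the Tunicamycin values.

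Il1a and Il1b are neighbours on mouse chromosome 2 (mm10, GENCODE M21), both on the minus strand. Il1a (ENSMUSG00000027399.1) lies at 129299610 to 129309972 and Il1b (ENSMUSG00000027398.13) at 129364570 to 129371139, with 54.6 kb between them. Il1rn (ENSMUSG00000026981.15) lies on the plus strand of the same chromosome at 24336853 to 24351494, 105 Mb away. RefSeq (GRCm38.p6) lists 1 start for Il1a, 1 for Il1b and 3 for Il1rn. Counts of 3′ ends do not tell transcripts from different starts apart, so Il1rn was measured as a whole. The 250 bases before the start are shown because the 3 genes rose together after LPS and parted under several compounds. Capitals mark matches to the motifs searched. Each sequence is written 5′ to 3′ on the gene's strand. The windows are Il1a at chr2:129309973-129310222, Il1b at chr2:129371140-129371389, the Il1rn upstream start at chr2:24336610-24336859 and the Il1rn downstream start at chr2:24345121-24345370.
Il1a: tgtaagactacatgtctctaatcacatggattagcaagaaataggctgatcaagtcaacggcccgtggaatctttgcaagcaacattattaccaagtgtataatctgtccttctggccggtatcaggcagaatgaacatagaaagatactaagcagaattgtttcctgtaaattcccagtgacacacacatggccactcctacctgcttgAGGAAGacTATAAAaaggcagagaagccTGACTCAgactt
Il1b: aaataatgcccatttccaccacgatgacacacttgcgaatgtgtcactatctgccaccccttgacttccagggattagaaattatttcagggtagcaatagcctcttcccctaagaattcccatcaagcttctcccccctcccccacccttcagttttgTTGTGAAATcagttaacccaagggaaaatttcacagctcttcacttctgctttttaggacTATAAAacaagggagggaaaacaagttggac
Il1rn, upstream start: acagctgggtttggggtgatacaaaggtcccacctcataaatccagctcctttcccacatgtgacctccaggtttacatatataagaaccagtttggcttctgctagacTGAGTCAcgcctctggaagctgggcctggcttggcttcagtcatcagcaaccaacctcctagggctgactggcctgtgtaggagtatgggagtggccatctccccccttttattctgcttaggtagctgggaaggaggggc
Il1rn, downstream start: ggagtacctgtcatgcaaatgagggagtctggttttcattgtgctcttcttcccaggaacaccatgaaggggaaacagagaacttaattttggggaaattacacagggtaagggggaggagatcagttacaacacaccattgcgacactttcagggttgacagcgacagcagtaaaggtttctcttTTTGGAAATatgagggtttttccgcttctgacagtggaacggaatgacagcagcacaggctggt

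Both agonist promoters hold a TATA box (TATAAA), 32 to 27 bases before the start in Il1a and 31 to 26 bases before it in Il1b. None of the Il1rn windows holds one. That motif occurs in 12.4% of the 32851 promoter windows of the same length, searched on both strands. An AP-1 match (TGANTCA, in 6.75% of windows) stands 12 to 6 bases before the Il1a start and 141 to 135 bases before the upstream Il1rn start. A C/EBP match (TTNNGNAAT, in 10.2%) stands 91 to 83 bases before the Il1b start and 64 to 56 bases before the downstream Il1rn start. An ETS core (AGGAAG, in 29.5%) stands 40 to 35 bases before the Il1a start. No match was found in these windows to the NF-kB consensus (7.25% of windows), to TGACG (17.8%) or to TTCNNNGAA (7.02%). The middle Il1rn start, whose window overlaps that of the downstream start, had no match to any of the 7 motifs. No matches overlapped one another. A match is a string of letters, and no binding was measured.

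The 3′ ends of the 3 transcripts also differ in letters. ATTTA, the core of AU-rich elements that mark short-lived mRNAs, occurs 4 times in the 462 bases of the Il1b 3′ UTR (Il1b-201), and 3.27% of 1924 mouse 3′ UTRs of similar length hold as many. It occurs 3 times in the 1104 bases of Il1a (34.5% of 2786 hold as many) and 0 times in the 1867 bases of Il1rn. The densest site of each agonist, with ATTTA in capitals, is shown for that contrast.
Il1b, bases 195 to 224 of the 3′ UTR: caaccacttacctATTTATTTAtgtATTTA
Il1a, bases 576 to 605 of the 3′ UTR: attttatctatgtATTTAtaaatatATTTA

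LPS alone raised all 3 genes, Il1b by far the most. DMSO wells were compared with NoStim wells to ask how the genes respond to LPS. Il1b ranged from 76.3 to 248 CPM (median 138) in NoStim wells and from 2060 to 3297 CPM (median 2414) in DMSO wells. The groups did not overlap, and the lowest DMSO well held over 8 times the highest NoStim well. The log2 fold change was 4.01 ± 0.15 (SE, n = 8 wells per group; edgeR quasi-likelihood F test, adjusted p = 1.73e-44). Il1rn ranged from 58.9 to 165 CPM (median 95.9) in NoStim and from 182 to 431 CPM (median 376) in DMSO, again without overlap. Its log2 fold change was 1.69 ± 0.17 (edgeR adjusted p = 2.83e-16). Il1a ranged from 17.3 to 83.7 CPM (median 28.4) in NoStim and from 59.6 to 115 CPM (median 93.7) in DMSO. Here 6 of 8 DMSO wells lay above the highest NoStim well. Its log2 fold change was 1.32 ± 0.30 (edgeR adjusted p = 0.000131).

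Of all 4963 genes, 36.1% passed the threshold (adjusted p under 0.05) after LPS. The Il1b change was higher than that of 99.8% of tested genes, the Il1rn change than 95.2% and the Il1a change than 92.2%. Fewer cells and less RNA per cell cannot be told apart in these bulk libraries. The Il1a rise was 1.97 on plate 1 and 0.87 on plate 2, where it did not pass (edgeR adjusted p = 0.180), and NoStim wells averaged 23.0 CPM on plate 1 and 48.5 CPM on plate 2. The rises of Il1b (4.51 and 3.59) and Il1rn (2.07 and 1.31) were also smaller on plate 2, but passed on both plates. NoStim wells were higher on plate 2 for these genes too, at 114 and 189 CPM for Il1b and 89.3 and 120 CPM for Il1rn. Under RLE scaling the median of all genes moved from -0.04 to -0.19 in this comparison.

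**Figure D1:**
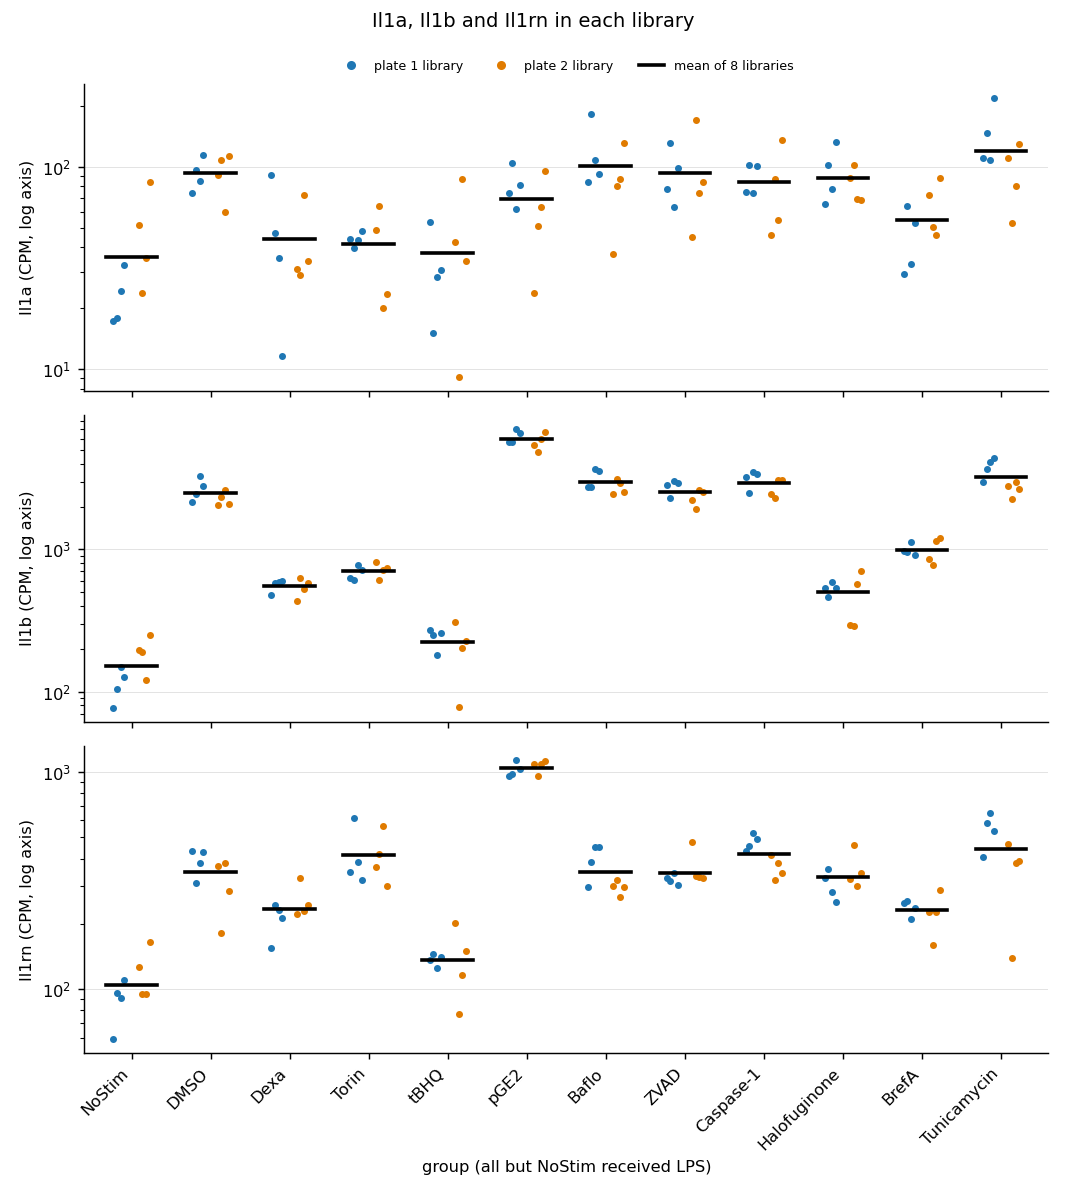
Il1a, Il1b and Il1rn in CPM (log axes) in every library of the 12 groups, blue for plate 1 and orange for plate 2, with black bars at the mean of 8. Il1b in DMSO wells lies between 2060 and 3297 CPM, above all NoStim wells, and the pGE2 wells are the highest for Il1b and Il1rn.

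Dexa lowered all 3 genes relative to DMSO, with a large fall of Il1b and smaller falls of Il1a and Il1rn. Il1b lay at 436 to 630 CPM (median 578), below every DMSO well. It fell by 2.16 ± 0.14 on the log2 scale, to 0.223 times the DMSO mean (edgeR adjusted p = 6.28e-26). Il1a lay at 11.6 to 91.5 CPM (median 34.9), and 6 of 8 Dexa wells were below the lowest DMSO well. It fell by 1.08 ± 0.29 (edgeR adjusted p = 0.0137). Il1rn lay at 155 to 327 CPM (median 231), with 1 Dexa well below the lowest DMSO well. It fell by 0.56 ± 0.16 (edgeR adjusted p = 0.0172). Of all genes, 3.57% passed in this comparison. The calls of Il1a and Il1rn were not firm. Il1a no longer passed with same-named wells of the plates summed (edgeR adjusted p = 0.0554) or without wells F (0.0810) or H (0.332), and Il1rn no longer passed without wells E (0.385), G (0.248) or H (0.174). On plate 2 alone Il1rn differed by -0.25 (edgeR adjusted p = 0.942), against -0.88 on plate 1. Without wells F, however, its fall was 0.80 (edgeR adjusted p = 8.94e-05). DMSO well F of plate 2 held 182 CPM of Il1rn, and the next lowest DMSO well 285 CPM. That well serves as control in every compound comparison.

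Under Torin the agonists fell, and no fall of the antagonist was detected. Il1b lay at 606 to 813 CPM (median 716), without overlap with DMSO. It fell by 1.82 ± 0.14 on the log2 scale (edgeR adjusted p = 1.23e-21). Il1a lay at 19.98 to 63.9 CPM (median 43.7), with 7 of 8 wells below the lowest DMSO well. It fell by 1.18 ± 0.32 (edgeR adjusted p = 0.00332). Il1rn lay at 301 to 612 CPM (median 375), with 2 of 8 wells above the highest DMSO well. Its difference was 0.26 ± 0.15 with a 95% interval from -0.04 to 0.56, and did not pass (edgeR adjusted p = 0.274). Without wells F the Il1rn difference was 0.01 (edgeR adjusted p = 0.976). Of all genes, 16.7% passed. On plate 2 alone Il1a did not pass (edgeR adjusted p = 0.122).

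On average over the plates, tBHQ brought all 3 genes close to unstimulated levels. Il1b lay at 77.3 to 306 CPM (median 239), and the highest tBHQ well was below every DMSO well. It fell by 3.48 ± 0.15 on the log2 scale (edgeR adjusted p = 5.16e-40). This was the largest fall of any member under any compound, and 3.0% of the mean difference between DMSO and NoStim in CPM remained. Il1rn lay at 77.3 to 202 CPM (median 139), with 7 of 8 wells below the lowest DMSO well. It fell by 1.33 ± 0.17 (edgeR adjusted p = 1.36e-11), and 13.2% of the difference remained. Il1a lay at 9.10 to 87.2 CPM (median 32.5), with 7 of 8 wells below the lowest DMSO well. It fell by 1.26 ± 0.30 (edgeR adjusted p = 0.000366). Of all genes, 36.4% passed, so a call was common in this comparison. On plate 2 alone Il1a did not pass (edgeR adjusted p = 0.101). Well F of plate 2 was the lowest tBHQ well for each of the 3 genes. Under RLE scaling the median of all genes moved from 0.04 to 0.19.

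Halofuginone, an inhibitor of prolyl-tRNA synthetase, lowered Il1b without a detectable change of the other 2 genes. Il1b lay at 290 to 705 CPM (median 535), all below DMSO. It fell by 2.32 ± 0.15 on the log2 scale (edgeR adjusted p = 2.40e-25). Il1rn lay at 253 to 460 CPM (median 324), with 1 of 8 wells above the highest DMSO well. Its difference was -0.07 ± 0.18 (95% interval -0.42 to 0.28, edgeR adjusted p = 0.784). Il1a lay at 65.0 to 133 CPM (median 82.9). Its difference was -0.07 ± 0.35 (95% interval -0.76 to 0.62, edgeR adjusted p = 0.895). These Il1a values rest on 4 to 10 counts per library, those of Il1rn on 18 to 28 and those of Il1b on 17 to 50. The interval of Il1a leaves room for a fall of up to 0.76. The median of all genes in this comparison was -0.20. The Il1rn value depended on the processing, at -0.39 with no filter on low genes (edgeR adjusted p = 0.0721), 0.10 with the 2 groups fitted alone, -0.43 on plate 1 and 0.22 on plate 2, none past the threshold. Without wells F the Il1rn value was -0.30 (edgeR adjusted p = 0.192). The Il1a value was -0.39 with no filter and 0.10 with the 2 groups fitted alone. Of all genes, 40.3% passed. The low depth and high Rn45s share of these libraries moved with this comparison. With Rn45s and Lars2 left out of counts and library sizes the Il1b change was -2.28, and the part of depth in the other values was not tested.

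BrefA lowered Il1b and Il1rn, and Il1a at the edge of the threshold. Il1b lay at 780 to 1205 CPM (median 967), below every DMSO well. It fell by 1.31 ± 0.13 on the log2 scale (edgeR adjusted p = 8.63e-15). Il1rn lay at 161 to 285 CPM (median 233), with 1 BrefA well below the lowest DMSO well. It fell by 0.57 ± 0.16 (edgeR adjusted p = 0.00405), a call that was lost without wells E (edgeR adjusted p = 0.0612) or G (0.129) and on plate 2 alone (0.321). Without wells F the fall of Il1rn was 0.66 (edgeR adjusted p = 0.000505). Il1a lay at 29.6 to 88.1 CPM (median 51.6), with 5 of 8 wells below the lowest DMSO well. It differed by -0.76 ± 0.29 (edgeR adjusted p = 0.0489), but not past the threshold with wells summed (0.108) or with any of the 4 wells left out (0.0898, 0.111, 0.183 and 0.115 without E, F, G and H). Of all genes, 17.3% passed.

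Under pGE2 Il1b and Il1rn rose beyond the level of LPS alone, and no change of Il1a was detected. Il1rn lay at 960 to 1136 CPM (median 1064), and the lowest pGE2 well held over 2 times the highest DMSO well. It rose by 1.60 ± 0.15 on the log2 scale (edgeR adjusted p = 2.04e-17), to 3.03 times the DMSO mean. Il1b lay at 4845 to 7031 CPM (median 5845), also without overlap with DMSO. It rose by 1.27 ± 0.13 (edgeR adjusted p = 2.02e-14), to 2.41 times the DMSO mean. Il1a lay at 23.7 to 105 CPM (median 68.8) and overlapped DMSO. Its difference was -0.40 ± 0.27 (95% interval -0.93 to 0.13, edgeR adjusted p = 0.417). Of all genes, 11.2% passed. In all other LPS groups with compound, the highest Il1rn well was at most 649 CPM and the highest Il1b well at most 4367 CPM. Macrophage markers summed to 3177 to 4290 CPM in pGE2 wells against 1627 to 2096 CPM in DMSO wells. Neutrophil markers, of which 4 of 8 had counts in pGE2 wells, summed to 2.73 to 21.8 CPM there against 0 to 14.2 CPM in DMSO. Mpo, Elane, Retnlg and Ltf were at 0 in both groups, and the part of these marker levels in the result was not tested.

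**Figure D2:**
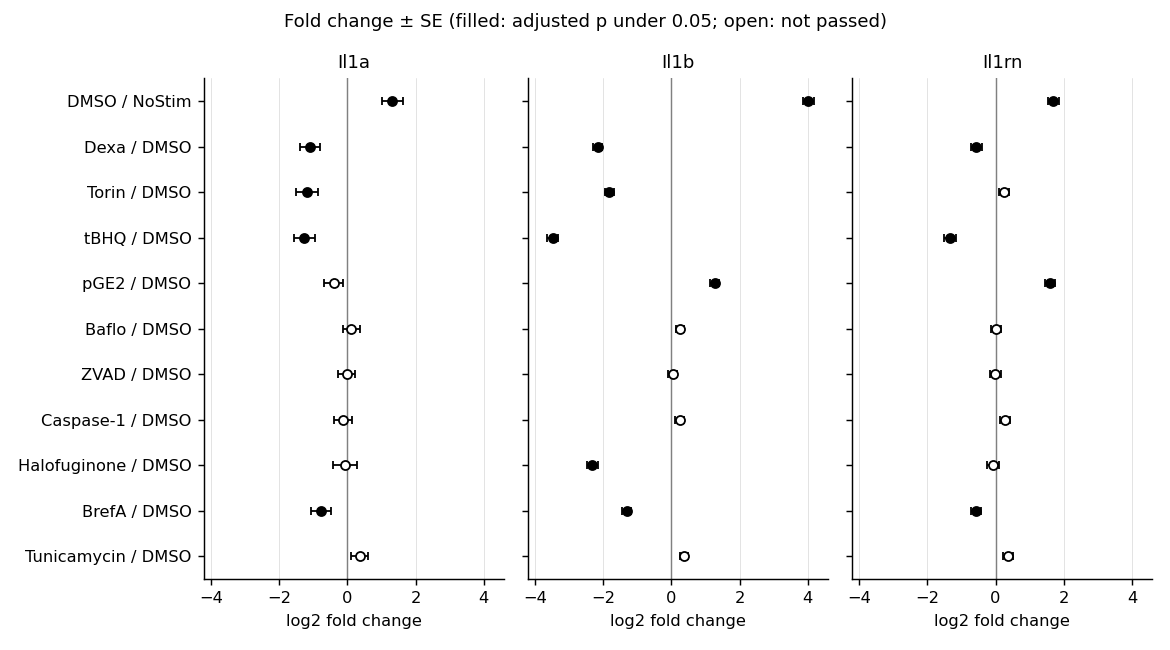
Log2 fold changes (x axes) with standard errors of Il1a, Il1b and Il1rn for LPS (DMSO against NoStim) and for each compound against DMSO, from n = 8 libraries per group. Filled points passed an adjusted p of 0.05; Il1b spans 4.01 after LPS to -3.48 under tBHQ, and the pGE2 values of Il1b and Il1rn are 1.27 and 1.60.

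No member passed under Baflo, ZVAD, Caspase-1 or Tunicamycin. Under Baflo, Il1b lay at 2465 to 3651 CPM and differed by 0.25 ± 0.13 (95% interval 0.00 to 0.50, edgeR adjusted p = 0.658), Il1rn by 0.01 ± 0.15 (-0.29 to 0.30) and Il1a by 0.12 ± 0.26 (-0.39 to 0.62). Here 0% of the 4963 genes passed in edgeR, while 373 had an unadjusted p under 0.05. DESeq2 called 2 of the 345 genes to which it gave an adjusted p. Under ZVAD, Il1b lay at 1935 to 3016 CPM, and the differences were 0.03 ± 0.13 for Il1b (95% interval -0.22 to 0.28), 0.00 ± 0.15 for Il1rn (-0.30 to 0.29) and -0.02 ± 0.26 for Il1a (-0.53 to 0.49). Again 0% of genes passed in edgeR, 176 of 4963 had an unadjusted p under 0.05 and DESeq2 called 0. Without any effect, about 5% of genes would have an unadjusted p under 0.05. Neither count was tested against that share. Under Caspase-1, where 2.9% of genes passed, Il1b lay at 2312 to 3490 CPM and differed by 0.24 ± 0.13 (95% interval -0.01 to 0.49). Il1rn differed by 0.28 ± 0.15 (-0.01 to 0.57) and Il1a by -0.13 ± 0.26 (-0.64 to 0.39) in those wells. These intervals leave room for changes of up to about 0.5 in Il1b and Il1rn, so the values do not show that the compounds left the genes as they were.

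Tunicamycin, an inhibitor of N-linked glycosylation, gave the highest Il1a well of the series and values of Il1b near the threshold. Il1b lay at 2269 to 4367 CPM (median 2985), with a difference of 0.37 ± 0.13 (95% interval 0.12 to 0.62, edgeR adjusted p = 0.0752). Il1rn lay at 139 to 649 CPM (median 437), with a difference of 0.36 ± 0.15 (0.07 to 0.66, edgeR adjusted p = 0.159). Il1a lay at 52.9 to 219 CPM (median 111), with a difference of 0.36 ± 0.26 (-0.14 to 0.86). In this comparison 4.37% of genes passed. Plate 2 well F held the lowest value of the group for all 3 genes. Without that library the differences were 0.44 for Il1b (edgeR adjusted p = 0.0297) and 0.50 for Il1rn (0.0186), both past the threshold. That setting kept the DMSO well F of plate 2, the lowest DMSO well for Il1rn. With wells F left out of every LPS group, neither gene passed. The differences were then 0.40 for Il1b (edgeR adjusted p = 0.0902) and 0.31 for Il1rn (0.300). On plate 1 alone Il1b passed as well (0.50, edgeR adjusted p = 0.0223), but not on plate 2 alone (0.22, 0.927) or with same-named wells summed (0.35, 0.174).

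The balance of antagonist to agonist RNA was compared within libraries, as the ratio of Il1rn to Il1b counts, which no scaling between libraries can change. It is a ratio of counts and not of protein. NoStim wells held 50.0 to 93.1 Il1rn counts per 100 Il1b counts (median 71.8) and DMSO wells 7.72 to 20 (median 14.0). The groups did not overlap, and the log2 ratio fell by 2.38 after LPS (exact permutation test within plates, two-sided, p = 0.000408, the smallest that 4900 rearrangements can give; adjusted p = 0.000998 over 22 ratio tests). So LPS raised both genes and lowered the ratio. Under Dexa the median was 42.4 per 100, under Torin 52.3, under tBHQ 61.9 and under Halofuginone 56.3. In these 4 groups no well overlapped DMSO, and the log2 ratio was higher by 1.61, 2.07, 2.23 and 2.33 in that order (exact permutation adjusted p = 0.000998 for each). The Torin and Halofuginone ratios rose with no detectable change of Il1rn itself.

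Under BrefA the median was 24.7 Il1rn counts per 100 Il1b counts and the log2 ratio was higher by 0.77 (exact permutation adjusted p = 0.00180). Under pGE2 both genes rose and the median was 17.1 per 100, with a range of 15.8 to 20.03. The log2 ratio was higher by 0.36 there (exact permutation adjusted p = 0.0477), a difference that did not pass with wells summed (0.34, adjusted p = 0.224). Under Baflo, ZVAD, Caspase-1 and Tunicamycin the log2 ratio differed by -0.24, -0.02, 0.06 and -0.07, none past the threshold. With same-named wells summed, 4 samples against 4 allow no exact p below 0.0286, and the lowest adjusted p was 0.0571, so no ratio could be called in that form. The separated groups named above kept differences of -2.32 for LPS, 1.60 for Dexa, 2.06 for Torin, 2.18 for tBHQ and 2.28 for Halofuginone.

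The 2 agonists also moved apart. DMSO wells held 2.26 to 5.38 Il1a counts per 100 Il1b counts (median 3.99) and NoStim wells 12.5 to 33.7 (median 24.2), without overlap. The log2 ratio fell by 2.60 after LPS (exact permutation adjusted p = 0.000998). It was higher than in DMSO under tBHQ by 2.08 and under Halofuginone by 2.35, and fell by 1.76 under pGE2, where Il1b rose and Il1a did not pass (0.436 to 1.85 per 100; exact permutation adjusted p = 0.000998 for each). No well overlapped DMSO in these 3 groups. Under Halofuginone the ratio rests on 4 to 10 Il1a and 17 to 50 Il1b counts per library. Under tBHQ it rests on 2 to 24 Il1a and 17 to 81 Il1b counts. Under Dexa and Torin the ratio was higher by 0.93 and 0.65 (exact permutation adjusted p = 0.0477 for both), and under BrefA the value of 0.52 did not pass (0.0757). Wells of Dexa, Torin and BrefA overlapped DMSO in this ratio.

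**Figure D3:**
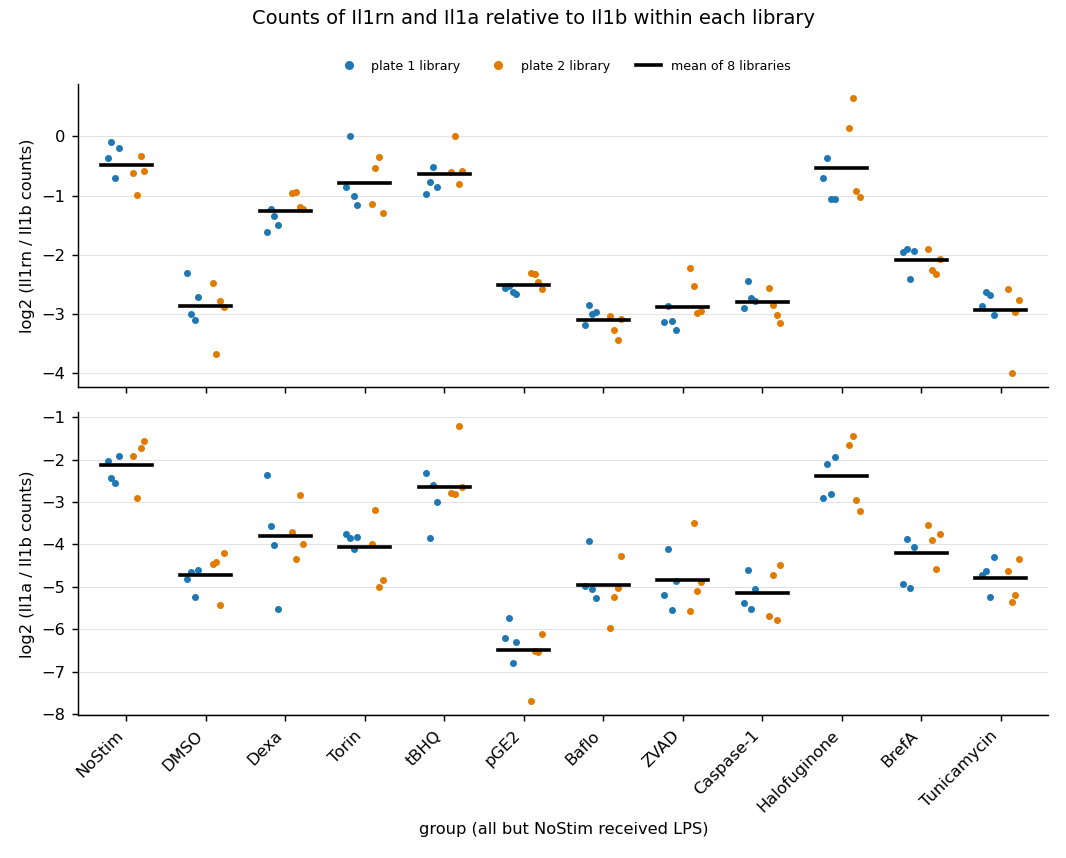
Log2 ratio of Il1rn to Il1b counts (upper panel) and of Il1a to Il1b counts (lower panel), each with 0.5 added, in every library by group; bars mark the mean of 8 libraries. DMSO wells average -2.87 in the upper panel, and the Torin, tBHQ and Halofuginone wells lie near the NoStim mean of -0.49.

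Each compound group was also set against NoStim, to see whether any LPS response was left. Il1b was above NoStim in all groups except tBHQ (exact permutation test within plates, adjusted p = 0.000765 for each of the other 9, over 30 tests). The log2 difference was 1.89 under Dexa, 2.23 under Torin, 1.69 under Halofuginone and 2.73 under BrefA, without overlap of wells. Under tBHQ it was 0.52 with overlap (exact permutation adjusted p = 0.102). The plates differed here. On plate 1 the lowest tBHQ well (179 CPM) lay above the highest NoStim well (149 CPM). On plate 2 the means were 203 CPM under tBHQ and 189 CPM in NoStim, and wells overlapped. Il1rn was likewise above NoStim in all groups except tBHQ, where the difference was 0.37 (exact permutation adjusted p = 0.0937). It was 1.12 under both Dexa and BrefA (exact permutation adjusted p = 0.000765 and 0.00136). Unlike Il1b, Il1rn overlapped NoStim wells under Dexa, BrefA and Tunicamycin. Its lowest tBHQ well on plate 1 (125 CPM) also lay above the highest NoStim well there (111 CPM). The plate 2 means of Il1rn were 136 and 120 CPM. The highest difference from NoStim was that of pGE2, 5.31 for Il1b and 3.27 for Il1rn. For Il1a the groups Dexa, Torin and tBHQ did not differ detectably from NoStim, with differences of 0.23, 0.25 and 0.01 (exact permutation adjusted p = 0.522, 0.401 and 0.968). Their means were 46.4, 43.8 and 31.9 CPM on plate 1, where NoStim averaged 23.0 CPM. On plate 2 they were 41.8, 38.9 and 43.3 CPM, below the 48.5 CPM of NoStim. The pooled differences of these groups thus average plates of opposite sign. Il1a was higher than in NoStim under pGE2 (0.87, 0.0260) and BrefA (0.59, 0.0323), 2 calls that did not hold with wells summed (exact permutation adjusted p = 0.0714 and 0.132). It was also higher under Baflo (1.34), ZVAD (1.25), Caspase-1 (1.15), Halofuginone (1.24) and Tunicamycin (1.59), with overlap of wells. For these groups the exact permutation adjusted p was 0.00373 or less, and 0.0373 with wells summed.

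Ordered by mean log2 CPM, the Il1b levels ran from pGE2 (5992 ± 730 CPM, SD, n = 8) through Tunicamycin (3233 ± 745), Baflo (2967 ± 442), Caspase-1 (2944 ± 459), ZVAD (2549 ± 377) and DMSO (2486 ± 421) to BrefA (997 ± 151), Torin (701 ± 77.3), Dexa (553 ± 66.0), Halofuginone (498 ± 145), tBHQ (221 ± 70.3) and NoStim (151 ± 56.6). Neighbours differed beyond their spread at 5 of 11 steps: pGE2 above Tunicamycin, DMSO above BrefA, BrefA above Torin, Torin above Dexa, and Halofuginone above tBHQ (exact permutation adjusted p = 0.00449 to 0.00770 over 33 neighbour tests). From Tunicamycin down to DMSO no neighbours differed, nor did Dexa from Halofuginone or tBHQ from NoStim. The neighbour tests took the 8 wells of a group as separate and were not run with same-named wells summed.

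Il1rn was ordered otherwise. pGE2 stood first (1047 ± 72.5 CPM, SD, n = 8), followed by Caspase-1 (420 ± 71.0), Tunicamycin (444 ± 157), Torin (414 ± 114), ZVAD (343 ± 54.8), Baflo (346 ± 73.8), DMSO (346 ± 83.9) and Halofuginone (330 ± 62.5), then Dexa (234 ± 47.4), BrefA (232 ± 36.5), tBHQ (137 ± 35.0) and NoStim (105 ± 30.8). Only 3 steps differed, from pGE2 to Caspase-1, from Halofuginone to Dexa and from BrefA to tBHQ (exact permutation adjusted p = 0.00449, 0.00842 and 0.00539). Torin and Halofuginone, low for Il1b, thus stood among the groups with no detectable fall of Il1rn. Il1a levels ran from 120 ± 49.2 CPM under Tunicamycin to 35.8 ± 22.3 CPM in NoStim, and no 2 neighbours differed (exact permutation adjusted p = 0.467 to 0.992).

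Across the 12 group means of log2 CPM, Pearson's r was 0.854 between Il1b and Il1rn, 0.778 between Il1a and Il1b and 0.588 between Il1a and Il1rn. These are descriptions over 12 points that share 2 plates and, at Il1a, low counts. Among 4670 candidate genes, the 5 with the pattern most like that of Il1b over the 12 groups were Ccnd2, a cyclin D gene (r = 0.956), Tpst1, a tyrosylprotein sulfotransferase (0.935), the cytokine gene Il6 (0.932), the oxidized LDL receptor gene Olr1 (0.926) and the kinase gene Stk40 (0.922). Ccnd2 ranged from 152 to 2321 CPM over the groups and Il6 from 9.58 to 138 CPM. For Il1rn they were Kctd12 (0.922), the galactosyltransferase gene B4galt5 (0.917), Stat3, a transcription factor downstream of Il6 and Il10 (0.911), Tnip3 (0.904) and Plek (0.892). For Il1a they were the collagenase gene Mmp13 (0.926), the IκB kinase gene Ikbkb (0.905), the actin regulator Vasp (0.898), the urokinase receptor gene Plaur (0.884) and Ythdf1 (0.879). No gene stood in more than 1 of the 3 lists. With only 5 of 4670 candidates in each, this does not show that the 3 patterns differ.

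The wider interleukin-1 pathway was read from a list of 44 genes, 43 of them in the table under current or older symbols. Of these 22 were tested, 19 besides the members: 10 of inflammasomes and processing and 9 of receptor signalling. None of the 8 receptor genes was tested. Il1r2, the decoy receptor, had 4 counts over all 96 libraries, in pGE2 and Caspase-1 wells only, where the highest well had 4.66 CPM. Il18, the other cytokine that caspase-1 activates, had 261 counts in all and averaged 13.5 CPM in DMSO wells and 5.61 CPM in NoStim wells, too few for a test.

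After LPS, 8 of the 19 rose and 3 fell, 57.9% called against 36.1% of all genes (median log2 fold change 0.27, against -0.04 over all tested genes). The processing genes Casp4 (2.42 ± 0.19), which encodes the caspase that senses cytosolic LPS, Nlrp3, the inflammasome sensor (1.79 ± 0.17), and the DNA sensor Aim2 (1.41 ± 0.20) rose, as did the kinase gene Map3k8 (2.67 ± 0.28) and Myd88, the adaptor of interleukin-1 and Toll-like receptors (1.44 ± 0.25). Txnip, which encodes a thioredoxin-binding protein, fell by 2.74 ± 0.23. edgeR adjusted p was 3.66e-07 or less for each. Casp1 rose from 69.3 to 150 CPM on average (1.13 ± 0.17). With same-named wells summed 9 rose and 2 fell, as Irak1 no longer passed (edgeR adjusted p = 0.0133 as reported, 0.0971 summed) and Tollip did (0.0561 and 0.0460).

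tBHQ lowered 8 of the 19 and raised 1, 47.4% called against 36.4% of all genes (median -0.34 against 0.04 over all genes). Map3k8 fell by 2.07 ± 0.27, Casp4 fell by 1.78 ± 0.18, Tab2 fell by 1.49 ± 0.15, Aim2 fell by 1.35 ± 0.21 and Nlrp3 fell by 1.31 ± 0.17, while Txnip rose by 2.21 ± 0.23. So Nlrp3, whose product is needed to process interleukin-1β in response to many stimuli, fell with Il1b there (222 CPM in DMSO, 89.9 CPM under tBHQ). BrefA lowered 6 and raised 1, 36.8% called against 17.3% of all genes. The one that rose was Nlrp3, by 0.71 ± 0.15 (edgeR adjusted p = 6.07e-05, 360 CPM on average), and Map3k8 fell by 2.26 ± 0.27 and Aim2 by 1.20 ± 0.20. Halofuginone raised 6 and lowered 6 (63.2% called against 40.3% of all genes), or 5 and 5 with wells summed, where Gsdmd and Irak4 no longer passed (edgeR adjusted p = 0.0690 and 0.0641). With 8 wells per group Nlrp3 was higher by 1.21 ± 0.16 (edgeR adjusted p = 1.49e-10, 515 CPM on average), Txnip higher by 1.71 ± 0.31 and Casp8 by 1.09 ± 0.34. Under Halofuginone Pycard, the inflammasome adaptor gene, fell by 2.20 ± 0.28, Tab2 by 1.36 ± 0.18 and Map3k8 by 1.27 ± 0.34. Under both compounds, then, Il1b and Nlrp3 changed in opposite directions.

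pGE2 lowered 5 of the 19 and raised 1, 31.6% called against 11.2% of all genes, while Il1b itself rose. Aim2 fell by 1.07 ± 0.20, Pycard by 1.06 ± 0.17, Casp4 by 0.61 ± 0.16, Casp1 by 0.53 ± 0.16 (edgeR adjusted p = 0.0152, and 0.0553 with wells summed) and Tab2 by 0.47 ± 0.14, and Naip2, a sensor of bacterial secretion systems, rose by 1.14 ± 0.24. Torin lowered 2 and raised 1, 15.8% called against 16.7% of all genes: it lowered Myd88 by 1.69 ± 0.28 (edgeR adjusted p = 4.11e-07) and Pycard by 0.76 ± 0.17 and raised Nek7, a partner of NLRP3, by 0.70 ± 0.16. Under Dexa, where 3.57% of all genes passed, 1 of the 19 rose and 0 fell: Irak3, which encodes an inhibitor of interleukin-1 and Toll-like receptor signalling, by 1.98 ± 0.36 (edgeR adjusted p = 1.36e-05; 14.5 CPM in DMSO, 55.9 CPM under Dexa). Under Caspase-1 Nek7 fell by 0.66 ± 0.17 (edgeR adjusted p = 0.0206, and 0.0636 with wells summed), and under Tunicamycin Txnip rose by 0.95 ± 0.26. Under Baflo and ZVAD 0 of the 19 passed.

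**Figure D4:**
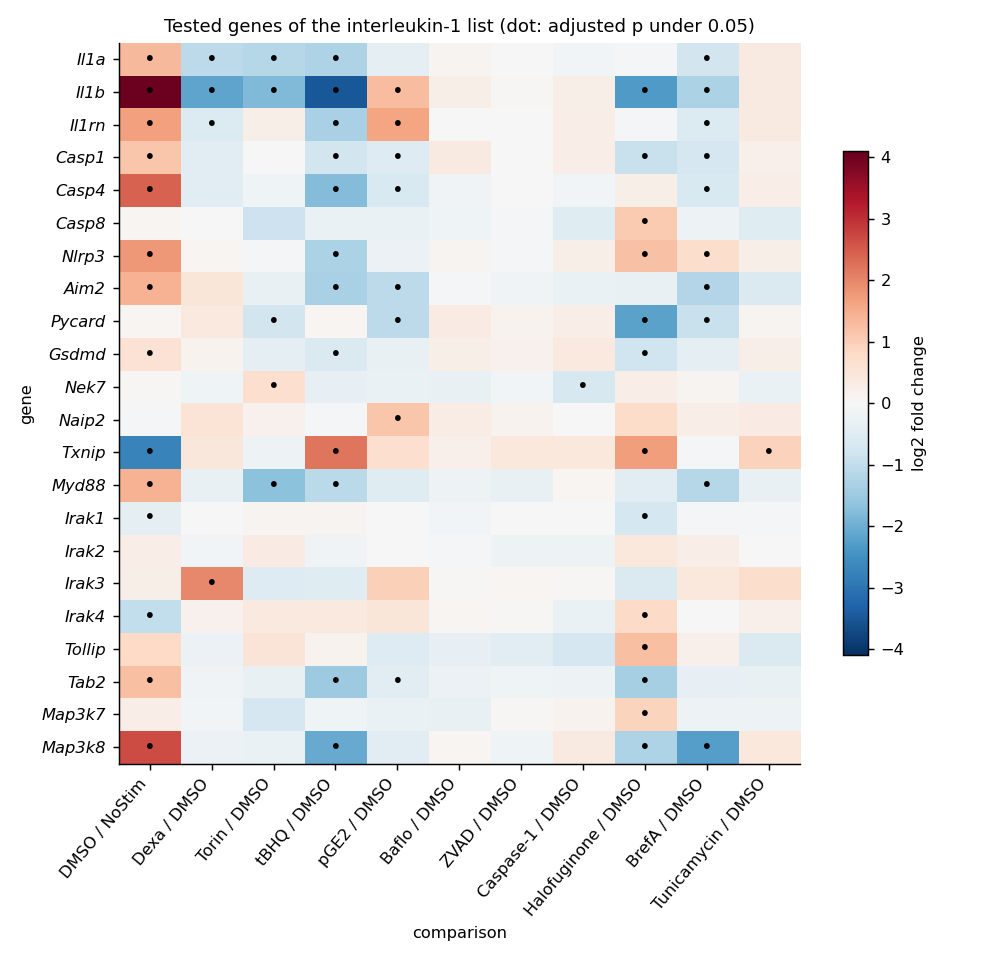
Log2 fold changes (colour) of the 22 tested genes of the interleukin-1 list, members first, in the 11 comparisons; dots mark an adjusted p under 0.05. The LPS column rises in 8 and falls in 3 of the 19 genes besides the members, and Nlrp3 is lower under tBHQ and higher under Halofuginone and BrefA.

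The genes beside the members on chromosome 2 were examined within 200 kb. Gm14023, on the plus strand, overlaps Il1a, and Il1bos, also on the plus strand, overlaps Il1b. It is not given in the sources used here whether counting used strand, so reads of a member and its opposite-strand partner may not be told apart. Il1bos had 14 counts in all under an older symbol and was not tested. Gm14023 had 683 counts and was tested. It rose by 2.85 ± 0.41 after LPS (5.09 CPM in NoStim, 41.6 CPM in DMSO; edgeR adjusted p = 4.22e-10). It fell by 3.88 ± 0.51 under tBHQ, by 1.66 ± 0.38 under Torin, by 1.63 ± 0.35 under Dexa and by 1.45 ± 0.35 under BrefA (edgeR adjusted p of 0.000412 or less for each), the 4 compounds under which Il1a passed. Under Halofuginone its difference was -1.05 ± 0.48 (edgeR adjusted p = 0.0628), where that of Il1a was -0.07, and under pGE2 0.15 ± 0.28. Psd4, the 1 tested gene within 200 kb of Il1rn, lies 16.1 kb away. It differed by -0.06 ± 0.28 after LPS and by 0.56 ± 0.27 under pGE2 (edgeR adjusted p = 0.893 and 0.195).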

How the data were processed

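Per the labels, lysates went through modified SCRB-Seq and Nextera steps that enrich transcript 3′ ends. The authors deposited counts per gene symbol for 96 libraries, from reads aligned with BWA to mm10, per the submitters' processing notes. Not given in the sources used here are the version of BWA, the annotation, strand use and any collapsing of PCR copies. Without collapsing, counts are not independent molecules.

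Groups came from the labels. edgeR 4.0.16 (R 4.3.3) was fitted to all 96 libraries with group and plate: TMM scaling, filterByExpr on group (4963 genes), robust quasi-likelihood F tests, two-sided, Benjamini-Hochberg adjustment over all tested genes of each comparison, threshold 0.05. SE is the log2 fold change over the root of F, and 95% intervals are 1.96 SE. CPM use the TMM-effective library size. Levels against NoStim, neighbours in order (log2 CPM, prior count 2) and count ratios (0.5 added) were tested by exact permutation within plates, with 30, 33 and 22 tests. The 10 compound comparisons share the DMSO libraries, so no relation between them is given. Scripts were tested on simulated data.

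Whether wells of the same name on the 2 plates hold 1 lysate is not in the labels. Deviations of such wells correlated across plates in 12 of 12 groups (mean r 0.105, 4671 genes), so values with them summed are given where a call in the text changes. The tests of neighbours in order were not run with wells summed. Named pathway genes are those past the threshold with 30 CPM or more and the same sign on both plates, up to 6 per comparison by size of change, with 5 fixed ones by level. Genes of like pattern are the 5 with the highest r, leaving out predicted genes. Motifs were searched on both strands of RefSeq windows (GRCm38.p6), and 3′ UTRs are the longest in GENCODE M21. The members and lists were chosen with earlier results of these data known. Alternatives were RLE scaling, DESeq2 1.42.0, no plate term, no filter or 20 CPM, each plate alone, summed wells, a replicate block, each well letter left out, the compared groups alone, Rn45s and Lars2 left out, Tunicamycin plate 2 F left out, and a pseudocount of 1.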

Additional observations from a re-analysis of the deposited data

Results flagged for a closer look

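Over 60 sets of 8 libraries (3 levels and 2 ratios in 12 groups), 3 held a library farther from the rest than Dixon's limit of 0.526 of the group's range, as many as the 3 that chance gives at 1 in 20. Il1rn in ZVAD well E of plate 2 stood at 475 CPM, with the next highest ZVAD library at 345 CPM and the group median at 327 CPM. The log2 ratio of Il1rn to Il1b counts in tBHQ well F of plate 2 was 0, against a next highest value of -0.51 and a median of -0.69. In Tunicamycin well F of plate 2 the same ratio was -4.00, against a next lowest value of -3.03 and a median of -2.82.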

How the results depend on the processing

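Under the alternatives run, 23 values of the fold changes and 6 of the ratios changed sign, 0 of them past the threshold in either form. In the fold changes, 504 results kept their side of the threshold, 25 lost a call and 7 gained one; in the ratios 71 kept theirs and 39 lost one. Il1b passed under each alternative in all 7 comparisons where it passed as reported. Plate 2 alone, with 4 wells per group, did not pass Il1a after LPS (0.87) or under Dexa (-1.07), Torin (-1.31), tBHQ (-1.04) and BrefA (-0.51), nor Il1rn under Dexa (-0.25) and BrefA (-0.42). With same-named wells summed, Il1a did not pass under Dexa (-1.10) or BrefA (-0.78). Il1a under BrefA also missed the threshold under RLE scaling (-0.73), the 20 CPM filter (-0.78), without Rn45s and Lars2 (-0.75), without Tunicamycin plate 2 F (-0.74) and in DESeq2 (-0.73). Il1b under Tunicamycin passed under RLE scaling (0.40), with no filter (0.37), on plate 1 alone (0.50), without Tunicamycin plate 2 F (0.44) and in DESeq2 (0.40), and Il1rn under Tunicamycin without that library (0.50). With each well letter left out in turn, the changes ranged from -1.33 to -0.73 for Il1a under Dexa, from -0.80 to -0.40 for Il1rn under Dexa, from -0.79 to -0.69 for Il1a under BrefA and from -0.66 to -0.44 for Il1rn under BrefA, with lost calls in each.

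Over 4671 genes, deviations of wells with the same letter correlated little across treatments (mean r 0.025 across plates and 0.027 within a plate, lowest -0.24). The replicate block, fitted to the 11 LPS groups, passed Il1b under Tunicamycin (0.37), a call not made with same-named wells summed (0.35, edgeR adjusted p = 0.174), and changed no other call of the members. DMSO and NoStim share no letters, so the block was not fitted to that comparison. The SE of Il1b was lower with the block under each compound, at 0.11 against 0.14 under Dexa and 0.10 against 0.13 under pGE2. Whether well letters share an effect on Il1b was not tested.

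For ratios, 4 samples against 4 cannot go below an exact permutation p of 0.0286, and the lowest adjusted p was 0.0571 with wells summed and 0.0629 on a single plate. None of these settings could therefore pass, and they say nothing on stability beyond the values. On plate 1 alone the log2 Il1rn to Il1b ratio differed by -2.44 after LPS, 1.36 under Dexa, 2.03 under Torin, 2.00 under tBHQ, 0.19 under pGE2, 1.99 under Halofuginone and 0.73 under BrefA. On plate 2 alone the values were -2.32, 1.87, 2.12, 2.46, 0.53, 2.66 and 0.81, and with wells summed -2.32, 1.60, 2.06, 2.18, 0.34, 2.28 and 0.76, in the same order. The log2 Il1a to Il1b ratio on plate 1 alone differed by -2.60 after LPS, 0.96 under Dexa, 0.94 under Torin, 1.89 under tBHQ, -1.43 under pGE2 and 2.39 under Halofuginone. On plate 2 alone the values were -2.61, 0.90, 0.37, 2.26, -2.09 and 2.31, and with wells summed -2.61, 1.01, 0.71, 2.04, -1.70 and 2.33. Il1a had 2 to 52 counts per library, which limits each of its values.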
